A study of Mus musculus with 2 samples.

Results

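The genes described here handle oxidants, thiols and metals: 37 genes for the synthesis and use of glutathione, for thioredoxins, peroxiredoxins, glutaredoxins, superoxide dismutases, catalase, heme oxygenases, the NRF2 pathway, metallothioneins and ferritin, taken by symbol from the array's annotation. Of these, 33 had at least 1 probe set (the short probes that together read a transcript) naming that gene alone, 70 such probe sets in all, among 18193 genes and 34945 probe sets on the array. Their signals were read in T cells that had met retinal pigment epithelium (RPE), the pigmented layer that supports photoreceptors and is known to restrain T cells, and in control T cells. Both samples came from male mice of C57 BL/6 background aged 6 weeks, with 1 Affymetrix array for the RPE-exposed and 1 for the control sample. The title of the control named CD4 T cells, whereas the exposed sample was titled as T cells and its tissue field named primary cultured RPE. How long the exposure lasted, whether cells or secreted factors were used, and how many mice were pooled is not stated in these sources. With 1 array a group there was no spread between samples and no test, so each difference below describes this pair of arrays.

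Glutathione is a small thiol peptide that cells keep reduced with NADPH, and thioredoxin is a small protein that serves in parallel to it. Peroxiredoxins, glutathione peroxidases and catalase remove peroxides, and glutaredoxins take glutathione off protein cysteines. NRF2, encoded by Nfe2l2, is held down by KEAP1, and it switches on many of these genes when KEAP1 cysteines are oxidised or alkylated. Metallothioneins bind zinc and copper, ferritin stores iron, and activated T cells are known to depend on glutathione for growth.

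The labelled cell type was checked against markers. All 7 analysed T-cell markers of 8 lay above the floor (the median signal of each array, 16 in exposed and 15.9 in control cells) on both arrays, with a summed signal of 10833.2 in exposed and 9385.9 in control cells. Both CD8 chain genes were also above the floor, at 694.6 in exposed and 568.8 in control cells for Cd8a and at 983.9 and 706.4 for Cd8b1, beside 271.1 in exposed and 287.0 in control cells for Cd4. B-cell markers (7 of 7 analysed above the floor on both arrays) summed to 1079.2 in exposed and 1519.7 in control cells. Macrophage and dendritic-cell markers (5 of 11 above the floor on both arrays) summed to 191.8 in exposed and 226.8 in control cells. Of 16 RPE markers none was above the floor on both arrays and 3 were above it on 1. They summed to 116 in exposed and 135 in control cells, with Rpe65 at 2.3 in exposed and 5.3 in control cells. None of 4 analysed red-cell markers was above the floor, and no marker of these lists was at exactly 0 on either array. Fewer cells of a type and less RNA per cell cannot be told apart in such bulk samples, and the part of other cells in the differences below was not tested.

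Most of the genes gave nearly the same signal in both samples. By the brightest probe set, those that differed by at least 1.5-fold were higher in RPE-exposed cells. The largest lower differences, of Mgst3 (1.35-fold) and Gstm1 (1.27-fold), stayed under that size. The glutaredoxin gene Glrx had the largest difference among the bright genes of the set. Nqo1, Srxn1 and Mt1 were higher at signals near the floor, where the probe sets of Srxn1 disagreed in sign. Of the 33 genes, 31 exceeded the floor in both samples, Mt1 on the exposed array only, and Mgst1 on neither. A log2 difference, RPE-exposed minus control, was computed for the 32 genes compared from the brightest probe set of each, with signals under the floor raised to it. At least 1.5-fold higher (0.58 on the log2 scale) were 4 of 32 genes (12.5%), against 3.12% of all 10995 genes compared. That contrast depended on the floor. At least 1.5-fold lower were 0 of 32, against 3.82%. By the brightest probe set, with signals under the floor raised to it, none was counted as 2-fold different, against 0.437% higher and 0.628% lower among all genes. The value of Mt1 is a lower bound of 1.99-fold, so whether it passed 2-fold is not settled, and it gave 1.36 on the log2 scale with no floor. Above 0 were 23 of 32 differences (71.9%), against 48.2% of all genes, and the median was 0.09, against -0.01 over all genes.

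The differences varied with brightness. Of the 23 genes with a signal of 100 or more on at least 1 array, 18 were higher (78.3%), against 49.8% of all 6524 genes as bright, and 1 (Glrx, 4.35%) was at least 1.5-fold higher, against 1.24% of those genes. None of the 23 was 1.5-fold lower, against 1.96%. The difference was under 1.2-fold for 19 of the 23 (82.6%), against 78.8% of all genes as bright. Genes as bright were matched only for a signal of 100 or more, and the share over all genes compared was not matched for level. When all genes were split by mean level into 20 bins, the middle 95% of differences in the brightest bin ran from -0.18 to 0.30. That bin held Txn1, Prdx2 and Fth1. Whether the shares of higher genes reflect signal level was not tested. The 9 dimmer genes held the other 3 of the 1.5-fold higher genes, against 5.86% of all 4471 genes as dim, and none was 1.5-fold lower, against 6.53%. Of the 9, 5 were higher. Mt1 was among the genes compared only because it passed the floor in exposed cells, so it could differ in 1 direction only.

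**Figure D1:**
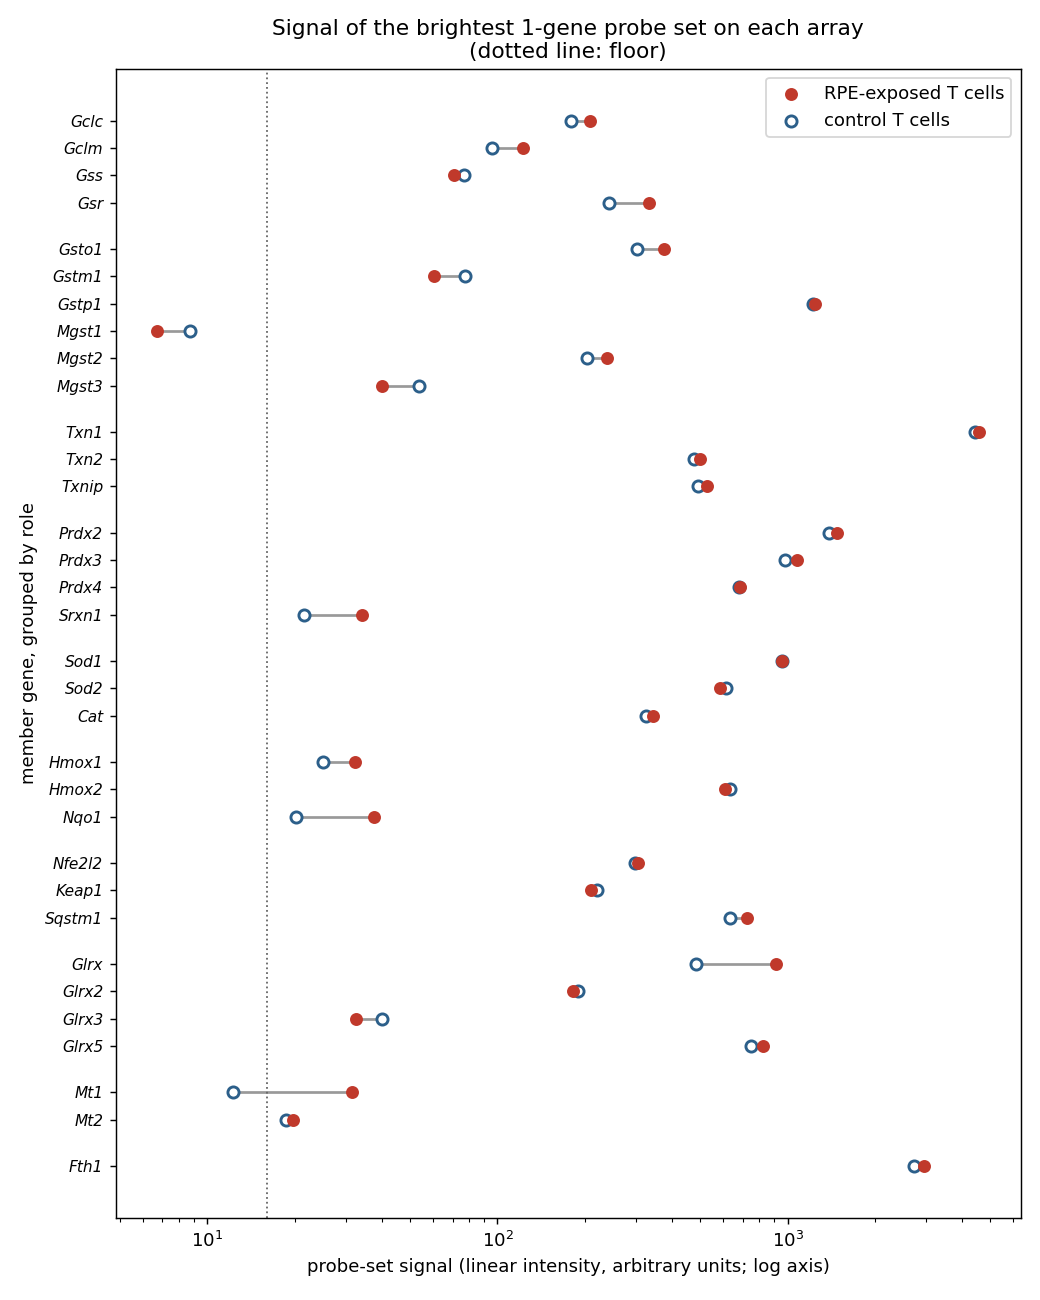
Signal of the brightest 1-gene probe set of each of 33 genes (log axis, arbitrary units) in RPE-exposed T cells (filled) and control T cells (open), grouped by role, 1 array each. Most pairs of points nearly coincide; Glrx, Nqo1, Srxn1 and Mt1 lie furthest apart, with the exposed sample to the right.

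Across all 70 probe sets, 56 exceeded the floor in both samples, and 36 of these were higher and 20 lower in exposed cells (median 0.09). Of all 18217 one-gene probe sets that did so, 48.4% were higher, again without matching for level. Where a gene had several such probe sets (18 genes), all were higher in 9, all were lower in 3, and they disagreed in sign in 6. Probe sets of 1 gene read the same 2 RNA samples and are not replicates. Their log2 differences had a pooled SD of 0.29 at signals under 100 (2072 genes of the array), 0.22 at 100 to 500 (2198 genes) and 0.14 at 500 or more (497 genes). Each gene was also set beside its like-level range, which spans the middle 95% of the differences of genes of similar mean signal (all genes were split by mean level into 20 bins). Of the 31 genes exceeding the floor in both samples, 2 (Glrx and Gsr) lay above that range and none below it. The way the range is built sets the share of all genes outside theirs (5.05%), and 2 of 31 is near that share.

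**Figure D2:**
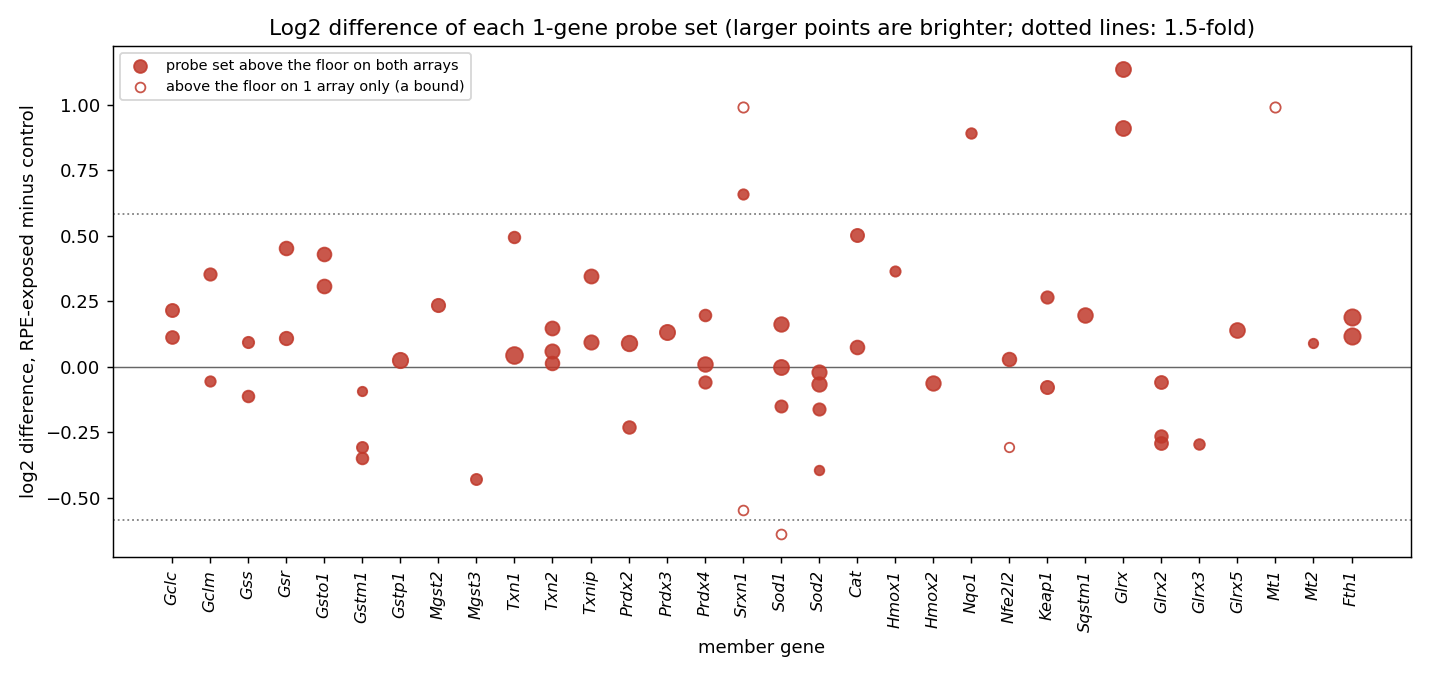
Log2 difference, RPE-exposed minus control, of each 1-gene probe set, by gene. Filled points were above the floor on both arrays, open points on 1 only, larger points are brighter, and dotted lines mark 1.5-fold. Both probe sets of Glrx lie above the upper line, and those of Srxn1 lie on both sides of 0.

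Among the glutaredoxins, small enzymes that use glutathione to reduce protein disulfides, Glrx was higher in exposed cells, while the other three lay near or under their control signals. Glrx, the cytosolic glutaredoxin, had signals of 910.4 and 929.0 for its 2 probe sets in exposed cells, against 484.1 and 422.6 in control cells. Both probe sets were thus well above the floor on both arrays and higher in exposed cells, 1.88-fold and 2.20-fold, with a mean log2 difference of 1.02 ± 0.16 (SD over 2 probe sets). By its brighter probe set (0.91, like-level range -0.44 to 0.51) Glrx ranked 70 from the highest of 10995 genes, and 18 of the 6524 genes with a signal of 100 or more. The probe sets of Glrx2, a mitochondrial glutaredoxin, gave 181.6, 154.6 and 119.7 in exposed cells, against 188.9, 189.2 and 143.7 in control cells. All 3 were lower, by 1.04-fold to 1.22-fold, with a mean of -0.20 ± 0.13 (SD). Glrx5, needed for mitochondrial iron-sulfur clusters, had 825.3 in exposed and 748.5 in control cells (0.14). Glrx3, a cytosolic monothiol glutaredoxin, had 1 dim probe set of its own, at 32.5 in exposed and 39.9 in control cells (-0.30).

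The sequence before the annotated start of Glrx is shown because this gene had the largest difference among bright members, and it is followed by those of the metallothionein pair described further on. Each is the 250 bases before the start in RefSeq, build GRCm38.p6, written 5′ to 3′ along the gene. Capitals mark matches, on either strand, to the antioxidant response element core TGACNNNGC bound by NRF2 with its small MAF partners, or to the metal response element core TGCACNC or TGCGCNC bound by the zinc-sensing factor MTF1. No match overlapped another.
Glrx, chr13:75839635-75839884 (+ strand): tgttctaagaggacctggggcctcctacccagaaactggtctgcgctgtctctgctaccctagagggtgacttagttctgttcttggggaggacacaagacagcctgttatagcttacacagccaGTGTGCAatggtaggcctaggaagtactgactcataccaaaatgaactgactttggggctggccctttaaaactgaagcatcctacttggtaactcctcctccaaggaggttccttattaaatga
Mt1, chr8:94178839-94179088 (+ strand): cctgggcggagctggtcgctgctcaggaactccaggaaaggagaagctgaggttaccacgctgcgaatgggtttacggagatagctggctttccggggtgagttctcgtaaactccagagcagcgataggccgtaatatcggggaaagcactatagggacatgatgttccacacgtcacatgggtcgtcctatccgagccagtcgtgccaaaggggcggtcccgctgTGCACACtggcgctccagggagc
Mt2, chr8:94172368-94172617 (+ strand): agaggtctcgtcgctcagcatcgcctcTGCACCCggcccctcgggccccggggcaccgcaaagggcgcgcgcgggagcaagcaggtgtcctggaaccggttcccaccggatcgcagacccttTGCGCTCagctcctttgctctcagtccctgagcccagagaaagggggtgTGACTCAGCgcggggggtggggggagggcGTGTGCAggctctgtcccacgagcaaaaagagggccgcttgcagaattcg
The Glrx stretch held no antioxidant response element core and 1 metal response element core, on the opposite strand, starting 125 bases before the start. Mt1 held 1 metal response element core, 23 bases before its annotated start, and Mt2 held 3 (at 223, 128 and 50 bases) and 1 antioxidant response element core at 79 bases. Promoters of 33 of the 37 genes were in the table. Among their 42 annotated promoters, 6 held an antioxidant response element core (14.3%), against 10.2% of all 32851 promoters, and 10 held a metal response element core (23.8%), against 21.4%. The genes with the antioxidant core were Gclm, Mgst1, Mt2, Nfe2l2, Prdx1 and Sod1. Mgst1 and Prdx1 could not be compared, and none of the others was 1.5-fold higher. The 8 genes with the metal core were Gclm, Glrx, Gstm1, Mt1, Mt2, Prdx4, Srxn1 and Txnip, of which Glrx, Mt1 and Srxn1 were 1.5-fold higher. Neither overlap was tested, and with so few genes neither is read as a result. A match describes letters only, and the counts depend on which start is annotated. Any of the genes, with or without a match, may have further elements outside its window.

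Of the 3 glutathione synthesis genes, Gclc was slightly higher by both of its probe sets, and those of Gclm and of Gss disagreed in sign. Glutathione reductase was higher by both of its probe sets, and none of these genes reached 1.5-fold. Gclc, the catalytic subunit of the rate-limiting ligase of glutathione synthesis, had 207.7 and 170.9 in exposed cells, against 178.7 and 157.9 in control cells, and both probe sets were higher (0.17 ± 0.07, SD over 2). Gclm, the modifier subunit of the same ligase, had 122.6 in exposed and 95.8 in control cells (0.36), while its dimmer probe set gave 33.5 and 34.8. Its probe sets therefore disagreed in sign. Gss, which adds glycine in the last step of synthesis, had 70.9 in exposed and 76.6 in control cells, a log2 difference of -0.11, and its other probe set gave 60.1 and 56.3. Gsr, the NADPH-dependent enzyme that reduces oxidised glutathione, had 332.2 in exposed and 242.4 in control cells, 1.37-fold higher (0.45, like-level range -0.48 to 0.44). Its other probe set gave 264.2 in exposed and 245.1 in control cells, only 1.08-fold higher, so the size of the Gsr difference rested on the choice of probe set.

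The glutathione transferases, which join glutathione to reactive compounds, went both ways. Gsto1, an omega-class transferase with glutaredoxin-like activity, had 374.5 and 352.4 in exposed cells, against 302.6 and 261.6 in control cells. Both of its probe sets were higher, 1.24-fold and 1.35-fold (0.37 ± 0.09, SD over 2). The brighter one (0.31) lay within the like-level range of -0.46 to 0.41, and the other gave 0.43, past its upper end. Mgst2, a microsomal transferase, had 239.1 in exposed and 202.8 in control cells (0.24). Gstp1, the main pi-class transferase, was bright and alike at 1239.6 in exposed and 1219.2 in control cells. Gstm1, a mu-class transferase, had 60.4, 43.0 and 18.4 in exposed cells, against 77.0, 53.2 and 19.6 in control cells, and all 3 probe sets above the floor were lower (-0.25 ± 0.14, SD). Mgst3 had 39.9 in exposed and 53.7 in control cells, the lowest difference of the set at -0.43 (1.35-fold lower), within its like-level range of -0.80 to 0.73. Mgst1 stayed under the floor in both samples, at 6.7 in exposed and 8.7 in control cells.

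Thioredoxins and peroxiredoxins, which include the brightest genes of the set, differed little. Txn1, cytosolic thioredoxin, had 4581.3 in exposed and 4436.0 in control cells (0.05), although a dim second probe set gave 71.4 and 50.7. Txn2, mitochondrial thioredoxin, had 3 probe sets that were all higher by 1.01-fold to 1.11-fold. Txnip, the thioredoxin-binding protein whose transcript follows glucose supply, had 525.8 and 429.9 in exposed cells, against 492.3 and 338.2 in control cells. Both probe sets of Txnip were higher (0.22 ± 0.18, SD over 2). Prdx2, a cytosolic peroxiredoxin, had 1477.6 in exposed and 1386.0 in control cells (0.09), but its dimmer probe set was lower, at 125.5 in exposed and 147.3 in control cells. Prdx3, in mitochondria, had 1077.1 in exposed and 981.4 in control cells (0.13). Prdx4, in the endoplasmic reticulum, had 686.4 in exposed and 680.9 in control cells (0.01). None of these genes lay outside its like-level range. Prdx5 and Prdx6 are not analysed here.

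Sulfiredoxin, the enzyme that repairs over-oxidised peroxiredoxins, was dim and its probe sets disagreed. The brightest probe set of Srxn1 gave 34.1 in exposed and 21.6 in control cells, 1.58-fold higher (0.66, like-level range -1.09 to 1.07). A second probe set gave 31.6 in exposed cells and was under the floor in control cells at 13.2, at least 1.99-fold higher. Another went the other way, at 4.8 in exposed cells, under the floor, and 23.4 in control cells, and the fourth was under the floor on both arrays. Averaged over the 3 probe sets that exceeded the floor in either sample, the Srxn1 difference was 0.37, under 1.5-fold.

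Superoxide dismutases were alike in both samples. Sod1, the cytosolic copper and zinc enzyme, had 955.0 in exposed and 955.3 in control cells by its brightest probe set, and 643.5 and 574.8 by the next. Its dimmer probe sets were lower, at 96.8 in exposed and 107.4 in control cells, and at 15.2, under the floor, in exposed and 24.9 in control cells. Sod2, the mitochondrial manganese enzyme, was slightly lower by all 4 of its probe sets, with 584.6 in exposed and 612.4 in control cells by the brightest (-0.07) and a mean of -0.16 ± 0.17 (SD). Cat, catalase, had 343.0 in exposed and 325.9 in control cells by one probe set (0.07) and 215.7 and 152.4 by the other (0.50, 1.42-fold higher). Both readings of catalase were higher, with a mean of 0.29 ± 0.30 (SD over 2), beside a pooled SD of 0.22 at that level.

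NRF2 itself and its repressor were alike, while the classical NRF2 target Nqo1 was higher at low signal. Nfe2l2 had 303.9 in exposed and 297.4 in control cells (0.03), with a dim second probe set at 13.3, under the floor, in exposed and 19.8 in control cells. Keap1 had 209.6 in exposed and 221.1 in control cells (-0.08) by one probe set and 121.9 and 101.4 by the other, so that its sign was not settled. Sqstm1, the autophagy receptor p62, which competes with NRF2 for KEAP1, had 724.0 in exposed and 631.2 in control cells (0.20). Nqo1, a quinone reductase, had 37.5 in exposed and 20.2 in control cells by its only probe set, 1.86-fold higher (0.89), within the like-level range of -1.09 to 1.07, which is wide near the floor. Hmox1, the inducible heme oxygenase, was dim as well, at 32.2 in exposed and 25 in control cells (0.37). Its constitutive relative Hmox2 was bright and alike, at 607.7 in exposed and 634.1 in control cells (-0.06).

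Of the metal-binding genes, Mt1 was higher and Mt2 was not. Mt1, metallothionein 1, had 31.6 in exposed cells and was under the floor in control cells at 12.3, at least 1.99-fold higher. That probe set is of the kind ending in s, whose probes are shared by several transcripts, and the other Mt1 probe set read 2.0 in exposed and 1.7 in control cells, far under the floor. Mt2, metallothionein 2, had 19.8 in exposed and 18.6 in control cells, just above the floor on both arrays (0.09). The paired metallothionein genes lie next to each other on chromosome 8, and both were near the lower limit of the array. Fth1, the ferritin heavy chain, had 2957.2 and 2870.7 in exposed cells, against 2723.4 and 2517.9 in control cells. Both Fth1 probe sets were higher by a small amount (0.15 ± 0.05, SD over 2).

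**Figure D3:**
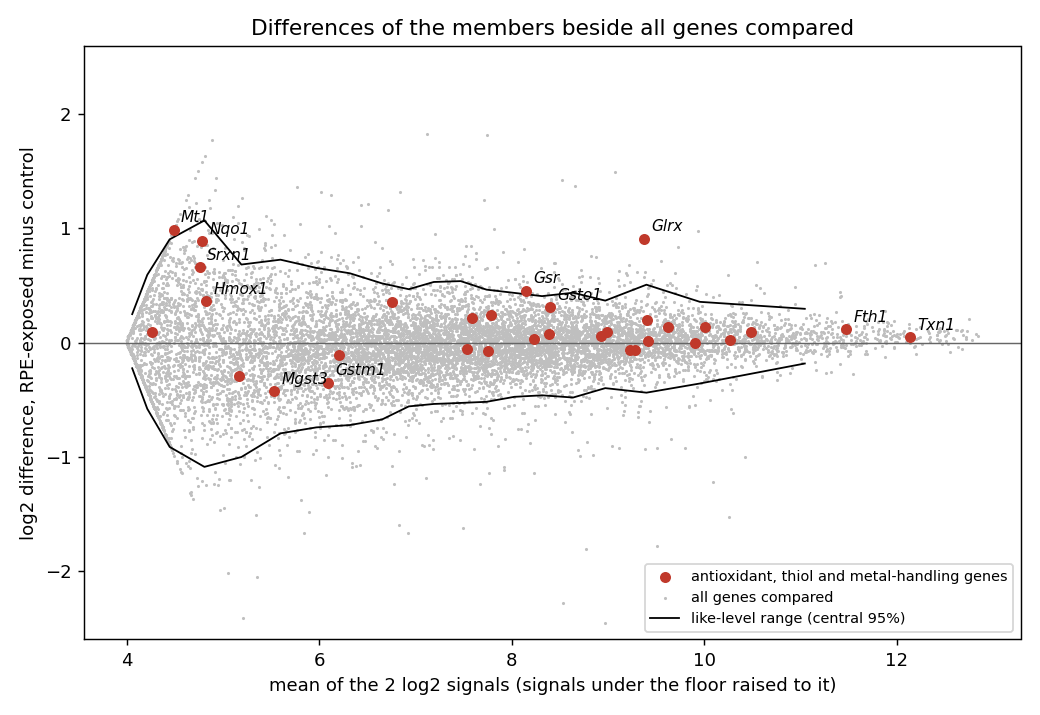
Log2 difference, RPE-exposed minus control, against the mean of the 2 log2 signals, for antioxidant, thiol and metal-handling genes (red) and all 10995 genes compared (grey), with the like-level range as lines. Glrx lies far above the range at a bright signal, Gsr and Mt1 at its edge, and Nqo1 and Srxn1 inside it.

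Neighbouring pathway lists were set beside these genes, 107 genes in 8 lists, of which 89 could be compared. Of these, 37 were higher and 52 lower, with a median of -0.05, against 48.2% higher among all genes. At least 1.5-fold higher were 3 of the 89 (Gpx1, Me1 and Chac1), near the 3.12% of all genes. Lower by as much was 1 (Blvrb), against 3.82% of all genes. In the list of glutathione peroxidases, thioredoxin reductases and methionine sulfoxide reductases, 7 of 9 were higher and the median was 0.16. Gpx1, the main cytosolic glutathione peroxidase, had 1908.4 in exposed and 1168.4 in control cells, 1.63-fold higher (0.71, like-level range -0.18 to 0.30, 1 probe set). Txnrd1, cytosolic thioredoxin reductase, had 1101.0 in exposed and 966.5 in control cells (0.19), and Gpx4, which protects membrane lipids, gave 0.03. Among the NADPH-supplying enzymes 5 of 10 were higher (median 0.01). The malic enzyme gene Me1 was 2.28-fold higher at low signal, with 37.8 in exposed and 16.6 in control cells, whereas Pgd and Tkt of the pentose phosphate pathway gave 0.16 and 0.05.

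The remaining lists held few differences of 1.5-fold. In the cystine uptake and glutathione turnover list 2 of 9 were higher (median -0.09), one of them Chac1, which degrades glutathione, at 29.9 in exposed and 18 in control cells (0.73). The cystine carrier gene Slc7a11, an NRF2 target, had 10.7 in exposed cells, under the floor, and 17.3 in control cells, just above it. Among other detoxification enzymes 3 of 13 were higher (median -0.18), and Blvrb, a biliverdin and flavin reductase, was 1.81-fold lower, at 49.4 in exposed and 89.3 in control cells. Among the partners and regulators of NRF2, 2 of 10 were higher (median -0.16), and the small MAF gene Mafk had 76.1 in exposed and 110.3 in control cells (-0.54). The zinc and copper list was even, with 13 of 23 higher and a median of 0.03, its largest difference being that of the zinc exporter Slc30a4 (0.37). The zinc exporter Slc30a1, a target of MTF1 like the metallothioneins, was under the floor on both arrays, at 5.3 in exposed and 4.4 in control cells. In the iron list 4 of 11 were higher (median -0.07), and the largest difference was that of Fbxl5, an iron-sensing ubiquitin ligase subunit, at 129.4 in exposed and 176.1 in control cells (-0.44). Tfrc, the transferrin receptor, gave 0.10. Of the 4 arrestin-domain relatives of Txnip 1 was higher, and Arrdc3 had the largest difference of -0.31.

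**Figure D4:**
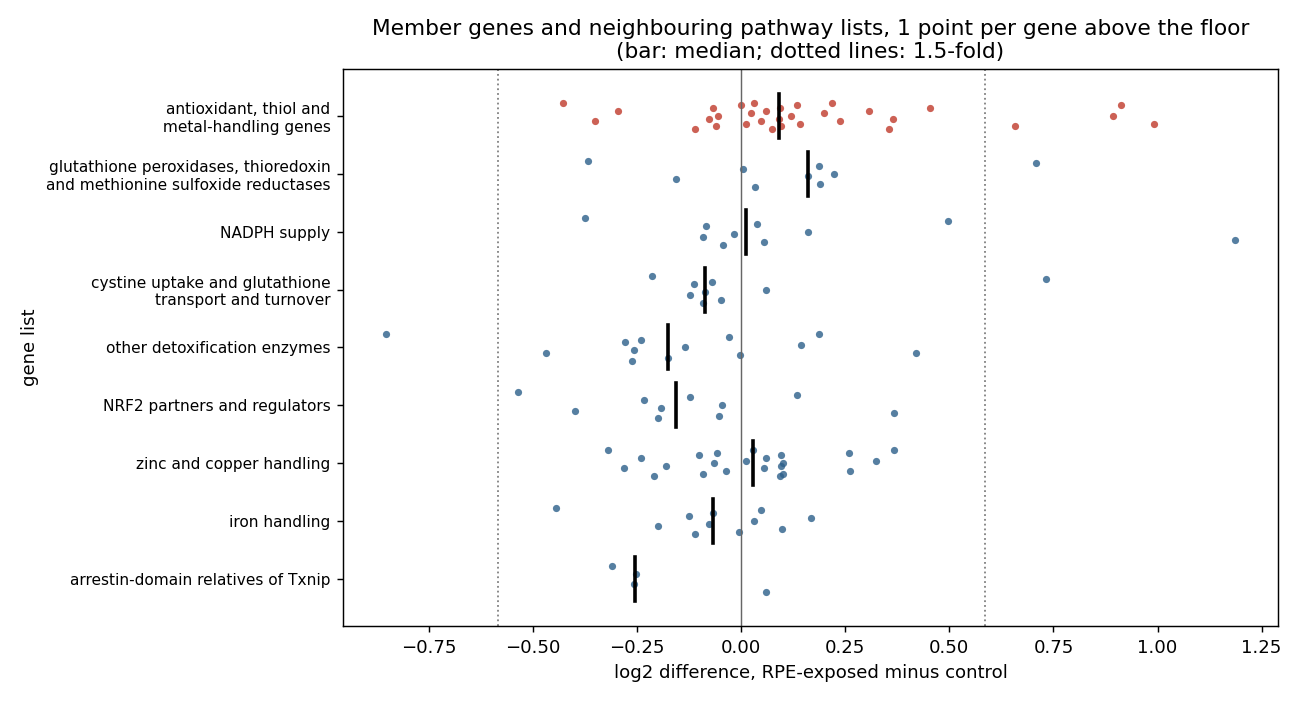
Log2 difference, RPE-exposed minus control, of each gene that exceeded the floor in either sample, for antioxidant, thiol and metal-handling genes (red) and 8 neighbouring lists (blue); bars are medians and dotted lines mark 1.5-fold. Medians run from -0.25 in the arrestin-domain list to 0.16 in the list with the glutathione peroxidases.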

How the data were processed

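Total RNA was turned into biotin-labelled cRNA and hybridised to 1-colour Affymetrix arrays, per the labels' protocols. The deposited values are linear intensities, 1 per probe set and array, and the summarization software is not stated there. After leaving out the lowest and highest 2% of probe sets, the mean intensity was 99.2 in exposed and 99.3 in control cells, so the deposited intensities already shared a scale and were not rescaled. The number of arrays (2) limits the precision.

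Gene names came from the platform annotation, and 33 of 33 measured genes matched the RefSeq table of GRCm38.p6 by identifier. Python 3.11.15 with pandas 2.3.3, numpy 2.4.6 and matplotlib 3.10.9 was used. The probe set with the highest mean of log2 signals stood for its gene. Control probe sets (64 of 45101) and probe sets naming several genes (932) or none (9160) were left out. A fold against a signal under the floor is a lower bound. All genes of the set were named. In the other lists the genes 1.5-fold different, or up to 2 with the largest difference, were named, and further genes were chosen after their values were seen. The genes and lists were chosen with earlier results of these data known. The calculation was run on simulated data whose planted differences were larger than those of the genes of the set. That run does not speak to differences near 1.5-fold. Sequences came from RefSeq.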

Additional observations from a re-analysis of the deposited data

Results flagged for a closer look

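Genes read only, or mainly, by probe sets that also name a pseudogene or another gene gave signals outside the comparisons. For each of these genes the brightest such probe set was higher in exposed cells, while a dimmer one of Prdx1 and of Ftl1 was lower. Prdx1, a cytosolic peroxiredoxin, had 5 such probe sets. The brightest gave 4270.9 in exposed and 3994.6 in control cells, 4 of the 5 were higher, and the log2 differences ran from -0.17 to 0.10. Ftl1, the ferritin light chain, had 3, the brightest at 1985.8 in exposed and 1686.6 in control cells (0.24), and 2 of the 3 were higher. Glrx3 had 3 above the floor beside its own dim probe set, the brightest at 466.4 in exposed and 450.7 in control cells (0.05), and all 3 were higher, whereas its own probe set was lower. How much of each signal comes from the named gene was not tested. With 1 array a group, samples could not be screened for values far from the others.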

How the results depend on the processing

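With 1 array a group nothing can be said about variation between mice or cultures, and signals near the floor limit what Nqo1, Srxn1, Mt1, Mt2 and Hmox1 show. Over 8 alternatives (floor at the 25th or 75th percentile, no floor, median centring, quantile normalization, the mean of all probe sets, leaving out those whose names end in a, s or x, and an offset of 16) the median of the set ran from 0.08 to 0.14, and no gene was 1.5-fold lower. The count of genes 1.5-fold higher was 4 in the main setting and in 4 of the 8 alternatives. It was 3 with the mean of all probe sets (without Srxn1) and 3 without names ending in a, s or x (Mt1 not compared). It was 1 (Glrx) with the floor at the 75th percentile, where dim genes drop out, and 2 (Glrx and Mt1) with the offset of 16, which shrinks dim differences. The share of all genes 1.5-fold higher moved more than these counts. Lowering the floor to the 25th percentile raised it to 10.4%, and removing the floor raised it to 14.5%. The set had 4 of 33 genes in both cases. The contrast of the main setting, 12.5% against 3.12%, was thus largely lost there. For the remaining alternatives the share of all genes ran from 0.950% to 3.43%. Glrx stayed over 1.5-fold in all 8 alternatives, from 0.89 to 1.02. Nqo1 gave 0.56 with the offset. Of 32 genes, 27 kept their sign in every alternative that could be computed, and Gstp1, Keap1, Nfe2l2, Prdx2 and Sod1 did not. No paired analysis was possible because each group has 1 array.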
